A study of Homo sapiens with 6 samples.

Results

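The genes described here encode the heat shock chaperones and their DNAJ partners. They were taken by symbol from the deposited table of read counts: every symbol that starts with DNAJ, HSPA or HSP90, every HSPB followed by a digit, and HSPD1, HSPE1 and HSPH1. Among the 23710 genes of the table, 82 symbols met this rule, 5 of them pseudogenes that were left out, which leaves 77 members. These are 72 protein-coding genes and 5 antisense or readthrough transcripts. RNA was sequenced from THP-1, an established line of human monocytic leukaemia cells, in 6 libraries that form 3 numbered pairs. One library of each pair came from cells given 10 uM mebendazole, a benzimidazole worm drug that binds beta tubulin, and the other from cells given the vehicle DMSO, in both cases for 6 h. All 6 libraries come from this 1 line without any genetic change named in the labels. Nothing in the labels tells whether the pairs were separate cultures, so the p-values reflect only how far these samples vary, and that variation may be technical.

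Chaperones of the HSP70 family bind exposed hydrophobic stretches of unfolded proteins and release them in a cycle driven by ATP. J proteins, which carry the DNAJ name in humans, deliver clients to HSP70 and start its ATP hydrolysis, and exchange factors such as the HSP110 proteins then release the nucleotide. HSP90 acts later on kinases, steroid receptors and other clients, the chaperonin HSP60 with its lid HSP10 folds proteins inside mitochondria, and small heat shock proteins hold unfolded proteins without ATP. Separate members serve the cytosol, the endoplasmic reticulum and the mitochondria, and many of the cytosolic ones are known targets of the heat shock factor HSF1.

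Library totals ranged from 13420558 to 15727667 counts. All 7 myeloid markers looked at (SPI1, CD33, CSF1R, LYZ, ITGAM, FCGR1A and CEBPA) had a mean of at least 10 CPM (read counts brought to equal library size by TMM factors), and their summed level was 1763 to 1847 CPM with DMSO and 1609 to 1662 CPM with mebendazole. Single markers moved apart within that sum, with means of 323 and 638 CPM for SPI1 and 89.2 and 26.3 CPM for CD33, and the other 5 were lower with mebendazole. Markers of other cells stayed near 0, with sums of 1.06 to 1.22 and 1.10 to 1.56 CPM for 5 lymphoid genes and lower or similar sums for epithelial, erythroid and fibroblast genes. In bulk RNA, fewer cells of a type and less RNA per cell cannot be told apart, and levels are relative to the other RNA of the same library.

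With mebendazole most of the abundant chaperones fell and most tested J proteins of the DNAJB class rose. Of the 77 members 61 had enough reads to be tested, and 31 were called lower, 14 higher and 16 neither way (edgeR quasi-likelihood F test, adjusted p under 0.05 over all genes). That is 73.8% of the tested members called, against 82.3% of all 13591 genes tested, so being called did not set them apart. The 16 untested members, 12 of them protein-coding, had at most 44 reads each over the 6 libraries, and 5 had none. The split differed: 50.8% of the members were called lower and 23.0% higher, against 41.7% and 40.6% of all genes. A fall of at least 2-fold was called in 10 members and a rise of that size in 5, where 14.8% and 15.5% of all genes reached these sizes. The median log2 fold change was -0.16 over the tested members and -0.03 over all genes. In 45 of the 61 the mebendazole libraries did not overlap with the DMSO libraries, which held for 82.4% of all genes. That share applies wherever groups without overlap are mentioned below. Scaled by library totals in place of TMM factors, the split was 42 lower and 11 higher, where 53.9% of all genes were called lower and 30.8% higher. This scaling moved the median of all genes by -0.24, to -0.27, and the members' median to -0.40.

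Most of the abundant members fell. Of the 20 members with a mean of at least 100 CPM, 14 fell and 3 rose, which is 70.0% lower, while 30.8% of the 2351 genes at that level were called lower and 60.3% higher. At 200 CPM or more, 9 of 11 members fell, against 27.9% of 920 genes called lower and 63.6% called higher. HSPA9 was the uncalled gene of these 11 and DNAJC5 the one that rose. Together the 77 members took up 2.18, 2.16 and 2.15% of all counts in the DMSO libraries and 1.16, 1.13 and 1.14% in the mebendazole libraries. Their summed level went from 19912 ± 247 to 12483 ± 288 CPM (SD, n = 3), a ratio of 0.627.

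The families moved in different ways. The 28 members without the DNAJ name had 15 called lower, 2 higher and 4 neither way among 21 tested, with a median log2 fold change of -0.63. Among 39 tested of the 44 DNAJ genes, 16 were called lower, 12 higher and 11 neither way, with a median of -0.03. By share, 71.4% of the tested genes without the DNAJ name were called lower and 9.52% higher. For the DNAJ genes it was 41.0% and 30.8%, against 41.7% and 40.6% of all genes. By these shares DNAJ genes were called lower about as often as genes in general, and higher less often, a difference that was not tested. The DNAJB class was the one family in which most members rose, 7 of 9, with a median of 0.64. Summed levels gave the same picture, at 17137 ± 227 to 9894 ± 257 CPM without the DNAJ genes and 2773 ± 35.5 to 2586 ± 30.8 CPM for the DNAJ genes.

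**Figure D1:**
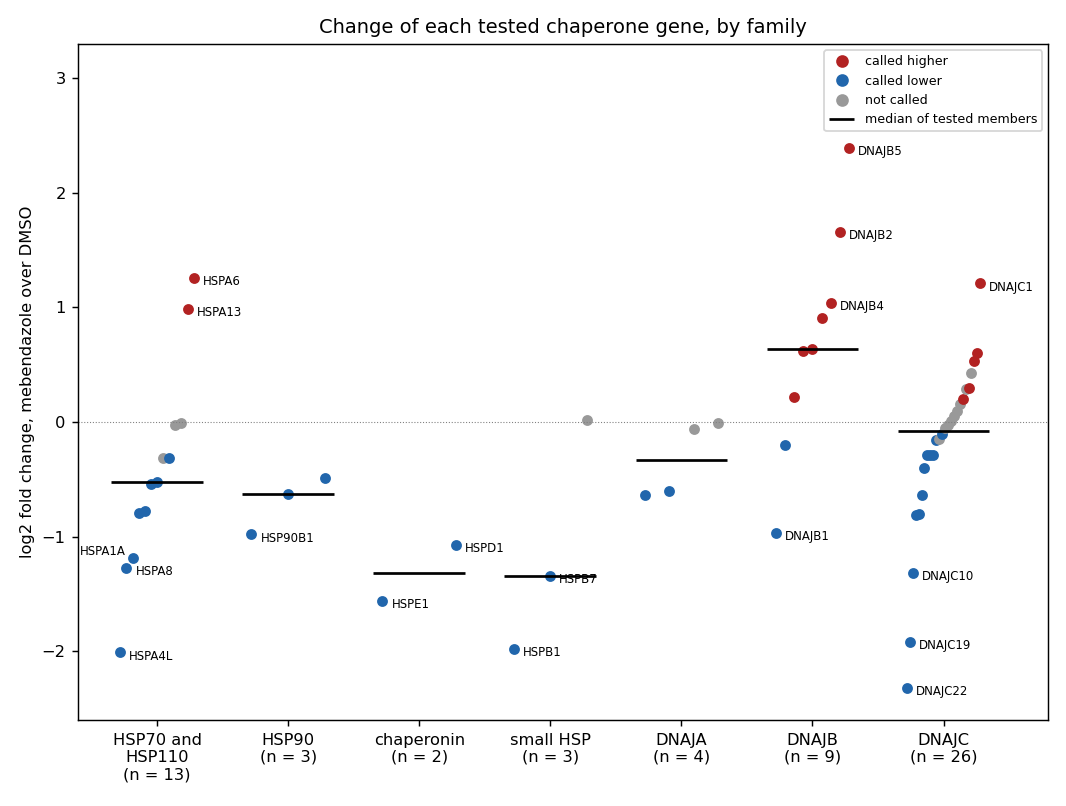
Log2 fold change (mebendazole over DMSO) of each of the tested protein-coding members, by family, with the number tested under each name. Red points were called higher, blue lower and grey neither way, and black bars are family medians. All 3 HSP90 genes and both chaperonin genes lie below 0, and 7 of 9 DNAJB genes lie above it.

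Heat shock factors bind repeats of the unit GAA and its complement TTC in alternation, each separated from the next by a pair of free bases. The stretch from 250 bases before to 50 bases after the annotated start was searched on both strands in 27305 promoters of RefSeq (GRCh38.p14), 65 of them of members. A run of 3 exact alternating units (GAANNTTCNNGAA or TTCNNGAANNTTC) was present in 0.487% of all promoters and in 4 of the 65. These were the promoters of HSPA6, HSPA8, DNAJB6 and DNAJA1. Elements with a mismatched unit or outside the stretch were not looked for, so members without a match may still have one. HSPA6 and DNAJB6 rose and HSPA8 and DNAJA1 fell. The endoplasmic reticulum stress element (CCAAT, 9 free bases, CCACG) was in 22 promoters, or 0.0806%, among them those of HSPA5 and HSP90B1, which both fell. The sequences below show these elements in capitals, written 5′ to 3′ on the strand of the gene, with flanking bases in lower case. The DNAJA1 element lies after the start of the transcript and is not shown.
HSPA8: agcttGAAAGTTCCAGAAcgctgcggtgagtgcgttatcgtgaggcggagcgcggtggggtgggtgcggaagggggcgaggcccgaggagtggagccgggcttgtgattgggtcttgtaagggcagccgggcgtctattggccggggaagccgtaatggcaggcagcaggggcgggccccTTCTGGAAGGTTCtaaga
HSPA6: aaaggTTCGCGAAAGTTCgcggc
DNAJB6: gccgaGAACCTTCGCGAAggtgg
HSPA5: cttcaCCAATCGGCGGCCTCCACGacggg
HSP90B1: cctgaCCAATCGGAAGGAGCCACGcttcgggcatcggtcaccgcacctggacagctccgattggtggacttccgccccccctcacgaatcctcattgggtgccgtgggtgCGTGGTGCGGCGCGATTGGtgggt
The HSPA8 stretch is chr11:123062174-123062371 on the minus strand and holds 2 heat shock elements. The HSPA6 and DNAJB6 stretches are chr1:161524461-161524483 and chr7:157336868-157336890, both on the plus strand. The HSPA5 stretch is chr9:125241386-125241414 on the minus strand, and the HSP90B1 stretch with 2 stress elements, the later one on the opposite strand, is chr12:103930211-103930344 on the plus strand. All 5 lie upstream of the annotated start. A pair of units, which is a weaker match, was more common: GAANNTTC was in 6.87% of all promoters and 16.9% of the members' (11 of 65, with HSPA1A, HSPA1B and HSPB1 among them), and TTCNNGAA in 7.84% and 12.3%. These pairs also occur inside every 3-unit element. A match in letters describes the sequence only, and binding was not measured.

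Of the 13 tested genes of the HSP70 and HSP110 family 8 fell (61.5%), 2 rose (15.4%) and 3 were not called. Among all genes 41.7% were called lower and 40.6% higher. The median log2 fold change of the family was -0.52. The family's summed level went from 7892 ± 109 to 4284 ± 139 CPM. HSPA8, the constitutive cytosolic HSC70 that also uncoats clathrin vesicles, had the highest level of the 77, also per kilobase of exon (1801 ± 28.4 CPM with DMSO). It stood at 4938, 4784 and 4858 CPM with DMSO and at 2093, 1943 and 2000 CPM with mebendazole. Every mebendazole library was far below every DMSO library, a 2.42-fold fall (log2 fold change -1.27, SE 0.03, adjusted p = 1.9e-48). Here and below the SE is the size of the log2 fold change over the root of the F value, and it rests mostly on a spread pooled over genes, with 2 residual degrees of freedom for the gene against a prior of 61.

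The stress-inducible HSP70 genes did not move together. HSPA1A read 38.1, 37.2 and 37.7 CPM with DMSO and 18.8, 15.7 and 14.9 CPM with mebendazole (log2 fold change -1.19, SE 0.07, adjusted p = 7.6e-24). HSPA1B read 79.1, 72.9 and 71.8 CPM against 56.2, 49.2 and 48.8 CPM (-0.54, SE 0.05, adjusted p = 2.2e-15). The groups do not overlap for either gene. These near-identical genes encode the same protein, and reads could be split between them, so their single values are uncertain. Summed, they went from 112 ± 4.31 to 67.9 ± 6.18 CPM (-0.73, SE 0.05, adjusted p = 3.4e-23). HSPA6, the HSP70 gene that unstressed human cells hardly express, went the other way, from 5.92, 5.15 and 5.94 CPM to 13.8, 12.9 and 14.0 CPM (1.26, SE 0.11, adjusted p = 3.7e-16). It is named here after its values were seen, since its mean level is under 10 CPM. Its near-identical pseudogene HSPA7 had 59, 73 and 62 reads with DMSO and 18, 29 and 22 with mebendazole. Reads could be split between these copies as well, so their single values and opposite directions are uncertain. HSPA6 held 60.4, 51.0 and 62.0% of the reads of both copies with DMSO and 91.5, 85.3 and 89.0% with mebendazole. The sum of both rose less than HSPA6 alone, from 9.83 ± 0.262 to 15.3 ± 0.368 CPM (0.64, SE 0.10, adjusted p = 1.7e-08), a sum formed after the data were seen.

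The exchange factors of the HSP110 type, which reset HSP70 by releasing its nucleotide, all fell, by very different amounts. HSPA4L read 31.8, 30.2 and 29.4 CPM with DMSO and 7.30, 7.82 and 7.63 CPM with mebendazole, a 4.02-fold fall (log2 fold change -2.01, SE 0.09, adjusted p = 4.4e-31). HSPH1 went from 485, 473 and 467 CPM to 292, 268 and 270 CPM (-0.78, SE 0.03, adjusted p = 5.1e-32). HSPA4, another of the group, went from 292, 283 and 287 CPM to 236, 226 and 235 CPM (-0.31, SE 0.03, adjusted p = 1.3e-12). The groups did not overlap for any of the 3 genes, nor for 82.4% of all genes tested. Per kilobase of exon, the level of HSPH1 in DMSO cells was 83.7 ± 1.62 CPM and that of HSPA4 59.3 ± 0.952 CPM.

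In the endoplasmic reticulum the HSP70 pair split. HSPA5, known as BiP, is the main HSP70 of that compartment and a sensor partner of the unfolded protein response. It read 1600, 1578 and 1627 CPM with DMSO and 1138, 1079 and 1146 CPM with mebendazole (log2 fold change -0.52, SE 0.03, adjusted p = 1.6e-25). HSPA13, a less studied relative found in microsomes, rose from 42.7, 40.8 and 42.5 CPM to 85.4, 77.3 and 86.7 CPM, 1.98-fold (0.99, SE 0.05, adjusted p = 2e-27). Both changes separate all libraries of the groups. HSPA9, or mortalin, the HSP70 of mitochondria and the motor of protein import, read 456, 447 and 455 CPM against 456, 443 and 447 CPM. Its groups overlap and it was not called (-0.01, SE 0.03, adjusted p = 0.72). Scaled by library totals HSPA9 was called lower at -0.26 (adjusted p = 1.1e-10), close to the shift of the median gene.

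The other members of this family were low. HSPA14, a ribosome-associated relative, was not called at 17.1, 17.4 and 15.6 CPM with DMSO and 17.5, 14.1 and 17.5 CPM with mebendazole (log2 fold change -0.03, adjusted p = 0.78). With library totals it was called lower at -0.27. HSPA1L and HSPA2, best known from the testis, had 262 and 102 reads in the 3 DMSO libraries and 128 and 70 in the mebendazole libraries. HSPA1L was called lower (-0.79) and HSPA2 was not called (-0.31). HSPA12A, with 4 and 16 reads, and HSPA12B, with 1 and 0, were too low to test.

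**Figure D2:**
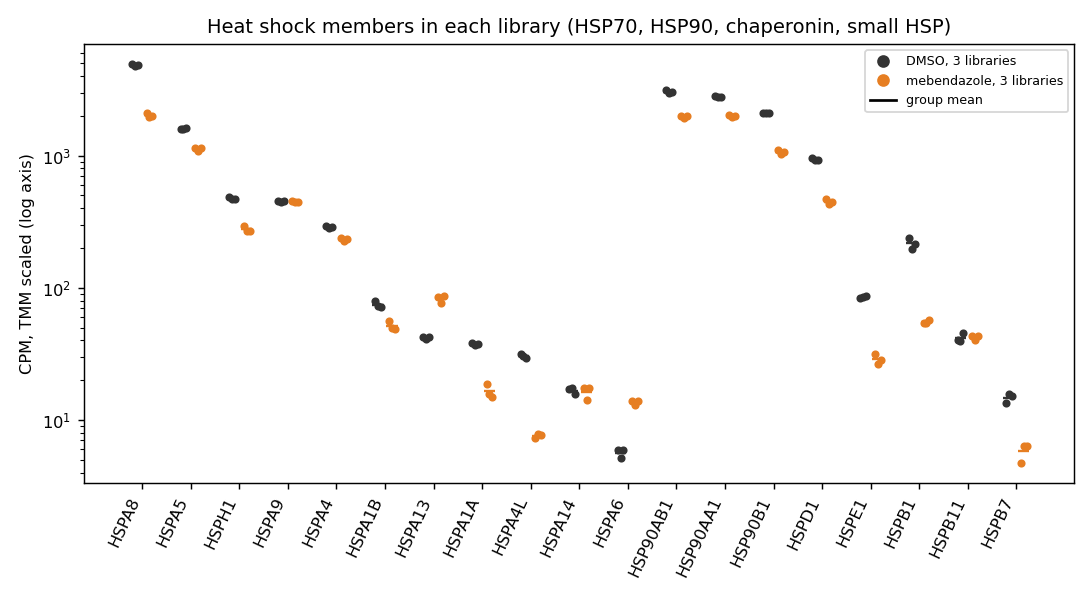
TMM-scaled CPM (log axis) of heat shock members in each library, 3 DMSO libraries in dark grey and 3 mebendazole libraries in orange, with group means as short lines. HSPA8 and the 3 HSP90 genes are the highest with DMSO and all lower with mebendazole, HSPA9, HSPA14 and HSPB11 overlap, and HSPA13 and HSPA6 are higher.

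HSPA8 gave up a part of its lead within the family. Levels were divided by exon length for this, and each gene was expressed as a share of the family's sum. HSPA8 made up 71.8, 71.6 and 71.5% of the HSP70 and HSP110 RNA with DMSO and 58.5, 58.1 and 57.7% with mebendazole. The groups do not overlap (71.6% ± 0.151 and 58.1% ± 0.382, SD, n = 3, two-sided exact permutation p = 0.1, which is the smallest that 3 against 3 can give). HSPA5 went from 16.3% ± 0.233 to 22.4% ± 0.441 of the family although its own level fell, and HSPA9 from 3.81% ± 0.0209 to 7.40% ± 0.144 at a level that was not called. The order HSPA8, HSPA5, HSPA9 was the same in both groups. Without length correction HSPH1 (6.02%) was above HSPA9 (5.73%) with DMSO.

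All 3 HSP90 genes fell, with a summed level of 7948 ± 93.5 CPM in DMSO and 5030 ± 99.5 CPM in mebendazole libraries. HSP90AB1, the constitutive cytosolic form, read 3126, 2990 and 3027 CPM with DMSO and 1981, 1924 and 1990 CPM with mebendazole (log2 fold change -0.63, SE 0.03, adjusted p = 4.3e-31). HSP90AA1, the inducible cytosolic form, read 2816, 2789 and 2782 CPM against 2045, 1968 and 1979 CPM (-0.49, SE 0.03, adjusted p = 4.8e-25). HSP90B1, or GRP94, which folds Toll-like receptors and integrins in the endoplasmic reticulum, fell most, from 2113, 2112 and 2087 CPM to 1100, 1036 and 1069 CPM (-0.98, SE 0.03, adjusted p = 1.1e-40). No mebendazole library reached the lowest DMSO library for any of these genes, and 82.4% of all genes tested also had no overlap. Per length, HSP90B1 went from 30.0% ± 0.314 to 24.4% ± 0.250 of the HSP90 RNA and HSP90AA1 from 28.3% ± 0.173 to 32.5% ± 0.334 (SD, n = 3). By the longest RefSeq transcript in place of the exons of all transcripts the values were 27.4 and 22.2% for HSP90B1 and 29.7 and 33.7% for HSP90AA1, so their order with DMSO depends on the length used. HSP90AB1 was first by either length, at 41.7% ± 0.480 and 43.1% ± 0.431 by the exons of all transcripts, while without length correction HSP90AA1 (39.7%) and HSP90AB1 (39.1%) differed with mebendazole by about their spread.

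**Figure D3:**
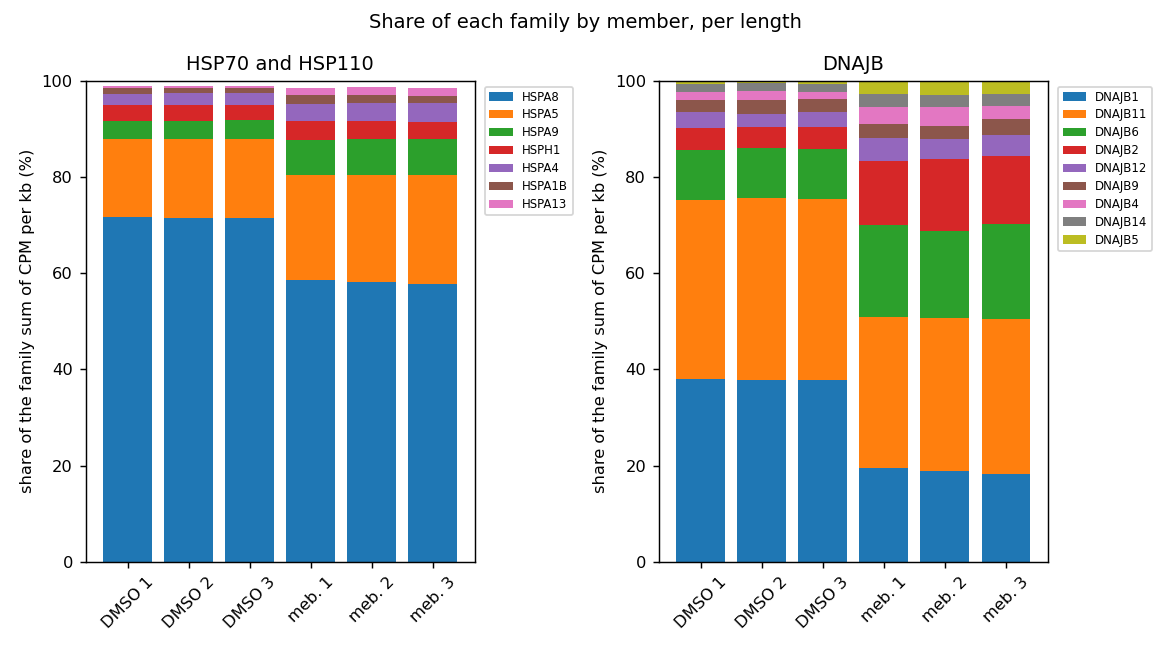
Share (percent) of each family's RNA by member, from CPM divided by exon length, as 1 stacked bar per library for the 3 DMSO and 3 mebendazole (meb.) libraries, HSP70 and HSP110 on the left and DNAJB on the right. Small members without a colour make up the gap to the full height, the mean share of HSPA8 is 71.6% with DMSO and 58.1% with mebendazole, and that of DNAJB1 is 37.8% and 18.8%.

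Both chaperonin genes fell. HSPD1, which encodes HSP60, read 956, 927 and 931 CPM with DMSO and 466, 434 and 442 CPM with mebendazole (log2 fold change -1.07, SE 0.03, adjusted p = 2.2e-41). HSPE1, which encodes its lid HSP10, fell further, from 84.3, 85.3 and 86.2 CPM to 31.3, 26.6 and 28.6 CPM (-1.56, SE 0.06, adjusted p = 4.5e-36). The groups are well apart for both. These genes lie head to head and share a promoter region. Their annotated exons overlap on opposite strands by 169 bases, or 6.58% of HSPD1 and 16.4% of HSPE1, and reads of that stretch cannot be told apart in an unstranded library.

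Of the small heat shock proteins 3 of 8 were tested, and 2 fell. HSPB1, or HSP27, which binds actin and damps aggregation, read 238, 197 and 216 CPM with DMSO and 53.9, 54.5 and 56.6 CPM with mebendazole. This 3.95-fold fall is larger than the wide spread of the DMSO libraries (log2 fold change -1.98, SE 0.05, adjusted p = 2.7e-47). HSPB7, best known from heart muscle, read 13.4, 15.6 and 15.1 CPM against 4.75, 6.37 and 6.37 CPM (-1.34, SE 0.11, adjusted p = 2.2e-17). HSPB11, the ciliary transport protein IFT25, was not called at 40.2, 39.9 and 45.3 CPM and 43.3, 40.3 and 43.4 CPM (0.02, adjusted p = 0.74), and with library totals it was called lower at -0.22 (adjusted p = 0.00039). HSPB3 and HSPB8 had no read in any library, which allows up to 3 reads per group, or 0.0638 CPM with DMSO and 0.0752 CPM with mebendazole, by counting error alone. HSPB2, HSPB6 and HSPB9 had too few reads to test.

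DNAJB proteins are J proteins of simple build, several of which direct HSP70 to aggregated or ubiquitinated clients. All 9 tested members were called, 7 higher (77.8%) and 2 lower (22.2%), with a median log2 fold change of 0.64. Of all genes tested, 82.3% were called, 40.6% higher and 41.7% lower. With library totals the class had 6 higher and 2 lower, with a median of 0.39. There 30.8% of all genes were called higher and 53.9% lower. The summed TMM-scaled level of the class went from 550 ± 8.68 to 618 ± 13.3 CPM, a ratio of 1.12 that is larger than the spread. Library totals moved the median gene by -0.24 on the log2 scale, more than this rise, so the direction of the sum depends on the scaling. DNAJB1, the cytosolic member with the most reads with DMSO, fell. This gene encodes the inducible HSP40 that works with HSPA8 and HSPA1A, and it read 189, 183 and 188 CPM with DMSO and 100, 94.3 and 91.2 CPM with mebendazole (-0.97, SE 0.04, adjusted p = 2.2e-32). All 3 mebendazole libraries lie below all DMSO libraries.

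Among the cytosolic DNAJB genes 4 of 5 tested rose. DNAJB5 rose most of all members, from 4.21, 2.71 and 3.82 CPM to 19.0, 19.6 and 18.2 CPM, which is 5.25-fold (log2 fold change 2.39, SE 0.12, adjusted p = 3.7e-28). DNAJB2, a J protein with ubiquitin-binding motifs that sends clients to the proteasome, rose from 29.6, 28.1 and 30.2 CPM to 89.5, 96.0 and 91.8 CPM (1.66, SE 0.05, adjusted p = 1.9e-38). DNAJB6, which holds back the aggregation of polyglutamine proteins, rose from 71.1, 68.8 and 70.7 CPM to 136, 125 and 136 CPM (0.91, SE 0.04, adjusted p = 3e-29). All libraries of these 3 genes separate by group, as they do for 82.4% of all genes tested. DNAJB4, a close relative of DNAJB1, rose from 10.3, 11.0 and 9.46 CPM to 22.6, 23.9 and 17.0 CPM (1.04, SE 0.09, adjusted p = 1e-16), with the third mebendazole library below the other two but above all DMSO libraries. Per length, DNAJB1 went from 37.8% ± 0.248 to 18.8% ± 0.586 of the DNAJB RNA, while DNAJB6 went from 10.4% ± 0.0814 to 19.1% ± 0.749 and DNAJB2 from 4.57% ± 0.111 to 14.1% ± 0.738 (SD, n = 3).

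The DNAJB genes of the endoplasmic reticulum moved less. The membrane J proteins DNAJB12 and DNAJB14, which help to discard misfolded membrane proteins, rose. DNAJB12 read 36.0, 29.6 and 33.8 CPM with DMSO and 53.9, 47.9 and 50.8 CPM with mebendazole (log2 fold change 0.62, SE 0.06, adjusted p = 2.5e-15). DNAJB14 read 20.0, 20.5 and 21.7 CPM against 34.4, 31.4 and 31.0 CPM (0.64, SE 0.07, adjusted p = 1.1e-12). Their groups do not overlap. DNAJB11, or ERdj3, the soluble partner of HSPA5, fell slightly, from 180, 181 and 184 CPM to 160, 156 and 158 CPM (-0.20, SE 0.04, adjusted p = 2e-06). It shares 15.9% of its exon bases with TBCCD1 on the opposite strand. DNAJB9, or ERdj4, had overlapping groups of 13.5, 15.5 and 14.8 CPM and 17.6, 15.3 and 18.0 CPM, and its call (0.22, adjusted p = 0.02) was lost with library totals (-0.02, adjusted p = 0.80), with DESeq2 (0.24, adjusted p = 0.16) and without replicate 1 (0.14, adjusted p = 0.21) or 3 (0.19, adjusted p = 0.14).

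DNAJA proteins carry the full domain set of the bacterial DnaJ, and 2 of 4 fell (50.0%), against 41.7% of all genes called lower. DNAJA1, the J protein with the most reads with DMSO, read 396, 392 and 397 CPM with DMSO and 265, 255 and 260 CPM with mebendazole (log2 fold change -0.60, SE 0.03, adjusted p = 6e-26). DNAJA3, or TID1, the form in mitochondria, read 103, 97.3 and 98.3 CPM against 63.4, 64.5 and 64.1 CPM (-0.64, SE 0.05, adjusted p = 5.7e-20). The groups of DNAJA2 and DNAJA4 overlap, at -0.01 (adjusted p = 0.91) and -0.06 (adjusted p = 0.14). With library totals, which moved the median gene by -0.24, both were called lower, at -0.25 and -0.31. That makes 4 of 4, where 53.9% of all genes were called lower.

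**Figure D4:**
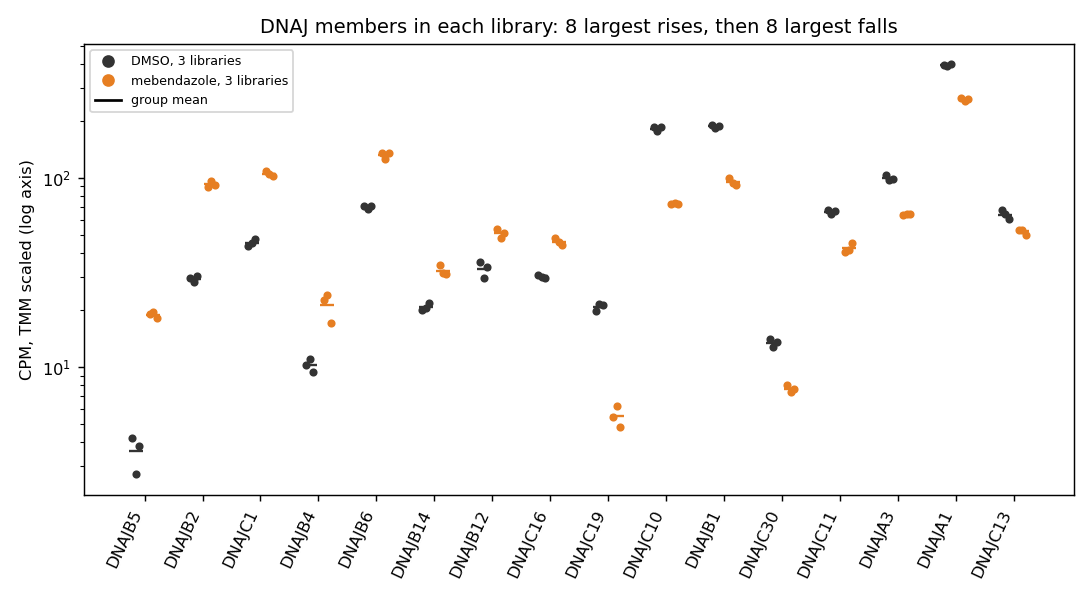
TMM-scaled CPM (log axis) in each library of the 8 DNAJ members with the largest rise and the 8 with the largest fall among called members at a mean of 10 CPM or more with the same direction in all 3 pairs, DMSO in dark grey and mebendazole in orange, with group means as short lines. DNAJB5, DNAJB2 and DNAJC1 rise most and DNAJC19 and DNAJC10 fall most. The groups do not overlap for any of the 16 genes, which the way they were chosen favours, and for 82.4% of all genes tested.

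The DNAJC class collects proteins that share little beyond a J domain. Of 26 tested, 12 fell (46.2%), 5 rose (19.2%) and 9 were not called, with a median log2 fold change of -0.07. Among all genes 41.7% were called lower and 40.6% higher. With library totals 17 were lower and 3 higher, where 53.9% of all genes were called lower and 30.8% higher. The largest rise was that of DNAJC1, or ERdj1, a membrane J protein of the endoplasmic reticulum that binds ribosomes, from 43.4, 45.5 and 47.4 CPM to 108, 105 and 102 CPM (1.21, SE 0.05, adjusted p = 5.7e-33). DNAJC16, another membrane J protein, rose from 30.8, 30.0 and 29.5 CPM to 47.8, 45.6 and 43.9 CPM (0.60, SE 0.06, adjusted p = 2.2e-14). DNAJC10, or ERdj5, which reduces disulfide bonds of proteins bound for degradation, fell from 185, 176 and 185 CPM to 72.8, 73.4 and 72.9 CPM (-1.32, SE 0.04, adjusted p = 5.1e-39). The 3 genes belong to the same compartment. Their groups did not overlap, which held for 82.4% of all genes tested.

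The mitochondrial DNAJC genes showed 3 falls among 4. DNAJC19, a relative of TIM14, the J protein of the import motor, read 19.7, 21.6 and 21.2 CPM with DMSO and 5.46, 6.21 and 4.80 CPM with mebendazole, a 3.79-fold fall (log2 fold change -1.92, SE 0.10, adjusted p = 3.7e-26). DNAJC30 read 14.1, 12.7 and 13.5 CPM against 8.08, 7.36 and 7.63 CPM (-0.80, SE 0.11, adjusted p = 4.1e-10). DNAJC11, a J protein tied to the outer membrane and the cristae complex, read 67.5, 64.1 and 66.8 CPM against 40.4, 41.4 and 45.2 CPM (-0.64, SE 0.05, adjusted p = 2e-17). All 3 genes separate by group, as do 82.4% of all genes tested. Of the DNAJC11 exon bases, 42.9% also lie in THAP3 on the opposite strand. DNAJC15, a relative of DNAJC19 in the inner membrane, was not called (0.05, adjusted p = 0.45).

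DNAJC proteins of vesicles changed little. DNAJC5, the cysteine string protein of exocytosis and the gene with the most reads of its class, read 253, 239 and 247 CPM with DMSO and 289, 270 and 288 CPM with mebendazole (log2 fold change 0.20, SE 0.03, adjusted p = 5e-07). Its direction turned with library totals (-0.05, adjusted p = 0.17). DNAJC13, or RME-8, which sorts cargo on endosomes, fell from 67.2, 64.1 and 60.4 CPM to 53.1, 53.3 and 50.0 CPM (-0.29, SE 0.05, adjusted p = 5.3e-07). Of the rest, DNAJC3, or p58IPK, an inhibitor of the stress kinase PERK, was called higher at 0.30, and with library totals it was not (0.06, adjusted p = 0.19). DNAJC2 and DNAJC21, which act on ribosomes and their assembly, both fell (-0.29), as did the nuclear DNAJC17 (-0.81), which shares 30.7% of its exon bases with GCHFR on the opposite strand. DNAJC9, a histone chaperone, was called higher at 0.53, and 25.8% of its exon bases are shared with FAM149B1 on the opposite strand. The calls of DNAJC7 (-0.10, adjusted p = 0.021), DNAJC14 (-0.16, adjusted p = 0.0017) and DNAJC18 (-0.40, adjusted p = 0.014) were lost with DESeq2, at adjusted p = 0.23, 0.08 and 0.20. DNAJC14 shares 24.2% of its exon bases with ORMDL2 and DNAJC7 18.8% with CNP, both on the opposite strand. DNAJC22 had the lowest fold change of all members (-2.32, SE 0.53) on 42 reads in DMSO and 7 in mebendazole libraries.

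By compartment, the mitochondrial members leaned to one side and those of the endoplasmic reticulum to none. Compartments were assigned from general knowledge of each protein. Of all genes, 41.7% were called lower and 40.6% higher. In mitochondria 6 of 8 members fell (75.0%), none rose, and HSPA9 and DNAJC15 were not called, with a median log2 fold change of -0.72. With library totals all 8 were lower, with a median of -0.97, where 53.9% of all genes were called lower. In the cytosol and nucleus 17 of 29 tested fell (58.6%) and 6 rose (20.7%), with a median of -0.31. The 10 cytosolic HSP70 and HSP110 genes had 7 lower and 1 higher, with a median of -0.66, whereas the 5 tested cytosolic DNAJB genes had 1 lower and 4 higher, with a median of 1.04. In the endoplasmic reticulum 6 of 14 fell (42.9%), 7 rose (50.0%) and DNAJC25 was not called. The median there was 0.04 (-0.01 without replicate 1), and it turned to -0.21 with library totals, where 7 were lower and 5 higher. With the DESeq2 Wald test 10 of these 14 genes were called. The summed level of that compartment nonetheless fell from 4459 ± 26.5 to 2968 ± 83.9 CPM, with HSP90B1 and HSPA5 as most of it, while the sum of its 11 J proteins was 711 ± 11.3 and 696 ± 16.0 CPM.

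**Figure D5:**
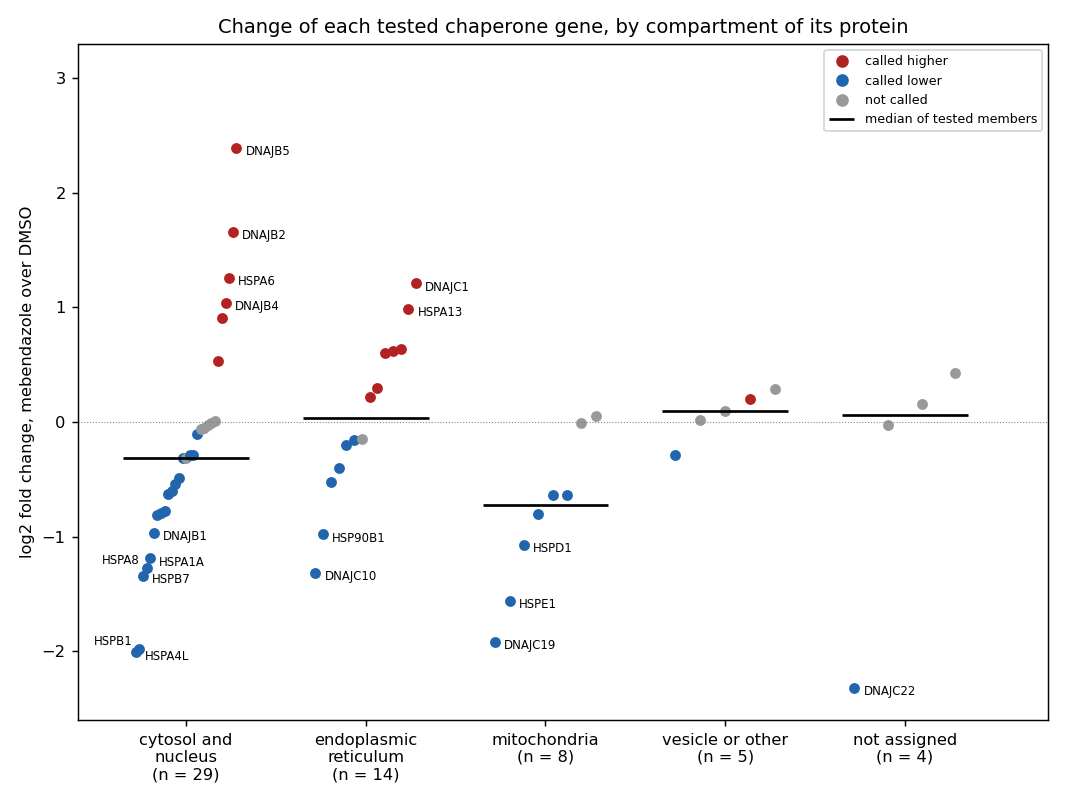
Log2 fold change (mebendazole over DMSO) of each tested protein-coding member by compartment of its protein, with the number tested. Red points were called higher, blue lower and grey neither way, and black bars are medians. No mitochondrial member was called higher, and the genes of the endoplasmic reticulum spread to both sides of 0.

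A list of 41 co-chaperones and heat shock factors that work with these families was read from the same fit. Of 38 tested, 16 were called lower, 15 higher and 7 neither way, with a median log2 fold change of -0.06, close to that of all genes. That is 42.1% lower and 39.5% higher, against 41.7% and 40.6% of all genes, so the calls did not set the list apart. With library totals the calls were 22 lower and 8 higher, where 53.9% of all genes were called lower and 30.8% higher. The HSP90 partners split, with 8 of 15 lower and 5 higher. FKBP4, a prolyl isomerase that joins HSP90 to steroid receptors and to dynein, fell from 88.0 ± 1.56 to 28.8 ± 0.410 CPM (-1.61, adjusted p = 1.4e-37). AHSA1, which speeds the ATPase of HSP90, fell by 1.03 on the log2 scale and PTGES3, or p23, by 0.79. TOMM34, a cytosolic protein that handles mitochondrial precursors with HSP70 and HSP90, rose from 57.1 ± 1.73 to 110 ± 1.57 CPM (0.95, adjusted p = 7e-29), and CDC37L1 rose at 0.64.

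The HSP70 partners had 6 lower (46.2%) and 4 higher (30.8%) of 13, against 41.7% and 40.6% of all genes. SIL1, an exchange factor of HSPA5, fell by 0.90 on the log2 scale, and BAG3, which links HSP70 to selective autophagy, rose from 25.9 ± 1.84 to 38.9 ± 2.02 CPM (0.59, adjusted p = 1.2e-12). TRAP1, the HSP90 of mitochondria, fell from 151 ± 6.54 to 50.9 ± 3.09 CPM (-1.57, adjusted p = 4.2e-40). Among J proteins without the DNAJ prefix and their partners, 3 of 5 rose and 1 fell. SEC62, which has no J domain itself and works beside the J protein SEC63, rose at 0.55 (adjusted p = 8e-22). HSF1, the main heat shock factor, was called higher at 121 ± 5.07 and 148 ± 5.15 CPM (0.29, adjusted p = 9e-10), but with library totals it was not (0.05, adjusted p = 0.26). HSF2 was not called (0.10, adjusted p = 0.14), and with library totals it was called lower at -0.15 (adjusted p = 0.026).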

How the data were processed

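The 6 THP-1 libraries were made with Illumina's TruSeq RNA v2 chemistry (poly(A) selection, unstranded), per the labels' protocols. The authors deposited raw gene counts by symbol, with a column for each sample and 0 columns of no sample. STAR, bedtools, HTSeq, DESeq2 and hg19 are named per the submitters' processing notes, but information on versions, annotation and strand setting was not given in the sources used here. Library totals were 13420558 to 15727667 counts.

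Differences were tested by edgeR 4.0.16 in R 4.3.3 (filterByExpr, TMM, glmQLFit and glmQLFTest, two-sided, sample pair and agent as terms, since the labels state pairs). The threshold for a call was a Benjamini-Hochberg adjusted p of 0.05 over 13591 genes, and every adjusted p in the text is from this test unless another is named. Levels are TMM-scaled CPM. The alternatives were DESeq2 1.42.0, other scalings, filters on low counts, a test against a 1.5-fold change, no replicate block and leaving out replicates. The method was tested on simulated data. No replicates agreed within sampling noise.

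Members, families, compartments and the co-chaperone list were chosen with earlier results of these data known. Per-library values are given for heat shock members at a mean of 10 CPM or more, for the 8 largest DNAJ rises and falls and for the most abundant member of each family, and the 5 largest rises and falls of the co-chaperone list are named, except for 1 gene that is not reported here. Others were named after their values were seen. Exon lengths and overlaps are from GENCODE v29 and matched by symbol, and not every overlap is named. Promoter sequences are from RefSeq (GRCh38.p14), another build than that of the counts, with 7 members without an entry. Symbols of 76 members were current in RefSeq and HSPB11 matched as a synonym of IFT25. Protein sequences were not used here.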

Additional observations from a re-analysis of the deposited data

How the results depend on the processing

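Of 49 named genes, 28 kept their sign and call under every alternative setting that tested them, and no member was called the opposite way under any. Without the replicate block 45 members (31 lower, 14 higher) and 11118 genes were called, and no member's call was lost. The sample numbers showed no sign of pairing in the data, with correlations of deviations of -0.000997, 0.0614 and 0.0155 between libraries of a number. With 1 replicate left out, 43 to 45 members were called, 1 to 2 of them in no assigned compartment, and the median log2 fold change of the cytosolic members was -0.31 to -0.28. Library totals moved the medians to -0.40 (all members), -0.76 (HSP70 and HSP110), -0.88 (HSP90), -1.56 (chaperonin), -1.58 (small HSP), -0.58 (DNAJA), 0.39 (DNAJB), -0.32 (DNAJC), -0.55 (cytosol and nucleus), -0.21 (endoplasmic reticulum, from 0.04) and -0.97 (mitochondria), called 4 DNAJA genes and 2 of no assigned compartment, and turned the sign of HSPB11 (-0.22), DNAJC5 (-0.05), DNAJB9 (-0.02), DNAJC15 (-0.20), DNAJC24 (-0.23), DNAJC27 (-0.09), DNAJC5B (-0.14), DNAJC27-AS1 (-0.15) and, of the co-chaperone genes named, HSF2 (-0.15). The cytosolic median was -0.29 with DESeq2 size factors and with its Wald test, and -0.33 without a filter, where the small HSP median was -0.89 and 2 genes of no assigned compartment were called. With only genes at a mean of 10 CPM or more, which tests fewer genes, the medians were -0.19 (all), -0.56 (HSP70 and HSP110), -0.67 (HSP90), -0.33 (cytosol), 0.19 (endoplasmic reticulum) and -0.76 (mitochondria), and 0 genes of no assigned compartment were called. A test against a 1.5-fold change, which asks for larger changes, called 5774 genes and 23 members (16 lower, 7 higher): 6 of HSP70 and HSP110, 0 DNAJA, 5 DNAJB, 6 DNAJC, 14 in the cytosol, 4 in the endoplasmic reticulum and 0 of vesicles, and 9 of the co-chaperone list. HSPA8 made up 73.1% and 60% of its family with DMSO and mebendazole by the longest RefSeq transcript, and 61.6% and 47.0% without length correction. Where not named above, the cause was not tested. Depth limited the tests of 16 members, each with at most 44 reads over the 6 libraries.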
